A study of Mus musculus with 2 samples.

Results

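Transcripts of chemokine receptors were described in cells able to start acute myeloid leukaemia (AML), a cancer of blood-forming myeloid cells, in the mouse. The 9 genes listed were Ccr1, Ccr2, Ccr7, Ccr9, Cx3cr1, Cxcr2, Cxcr3, Cxcr4 and Ackr3, taken by symbol from a count table of 46095 genes, and all 9 were found in it. Of these, 8 had at least 1 count over both libraries and 6 had at least 20. The study measured RNA by Illumina sequencing in 2 libraries of bone marrow cells sorted as positive for Mac1 and c-Kit, from C57BL/6 mice of 8 weeks. One library carries the genotype label wild type and a title ending in Scr, and the other the genotype label P2x7-KO and a title ending in KD. P2x7 is an ATP-gated cation channel, and the labelled difference between the libraries is its loss. If Scr and KD stand for a scrambled control and a knockdown, the titles do not match the genotype label of a knockout, and the labels do not settle which applies. The leukaemia model, the way P2x7 was removed and whether a library held cells of 1 mouse or of several are not given in the labels. Each group thus holds 1 library, no test between genotypes was possible, and every interval below covers counting error only, with reads that are not independent molecules.

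Chemokine receptors are G protein-coupled receptors with a bundle of membrane-spanning helices that read gradients of small secreted proteins, the chemokines. Most couple to the Gi class of G proteins, whose released beta-gamma subunits activate phosphoinositide 3-kinase gamma and Rac and so drive migration. Receptor kinases and beta-arrestins then switch the receptor off, and RGS proteins shorten the G protein signal. In bone marrow, CXCR4 holds stem and progenitor cells near its ligand CXCL12, CCR2 lets monocytes leave for the blood, CXCR2 does so for neutrophils, and CX3CR1 marks maturing monocytes. ACKR3 is an atypical receptor that takes up CXCL12 without Gi signalling.

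The wild-type-labelled library held 12456212 counts and the P2x7-KO-labelled library 12435916. Levels are given as CPM, counts per 1000000 after TMM scaling, a method that sets the libraries to a common level through the bulk of their genes. A gene with 0 counts is limited to 0.247 and 0.236 CPM in these libraries, taking 3 counts as the limit. The targeted gene, P2rx7, had 229 counts in the wild-type-labelled library and 543 in the P2x7-KO-labelled library, a ratio of 2.27 (95% counting interval 1.94 to 2.66). It was thus higher where the label says it was lost, so both libraries are named here by label only and every direction below rests on labels that this gene goes against. The sort genes were present in both libraries, Kit at 46.0 and 67.6 CPM and Itgam, the gene of a Mac1 subunit, at 187 and 543 CPM.

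Promoter sequences are shown for Ccr1, the most counted of the receptor genes that differed by at least 2-fold, and for Cxcr4, the receptor gene with the highest level in both libraries. Each is the 250 bases before the gene's start in RefSeq (GRCm38.p6, the assembly of mm10), written 5′ to 3′ on the gene's own strand. Of the 9 genes, 8 had such a window. In 5 of these the window overlaps an annotated exon, as for Ccr2 and Cx3cr1, and those are not printed. Capitals mark matches, on either strand, to 6 short motifs. The letters searched were GAGGAA for the core of PU.1 sites, TTNNGNAA for C/EBP, TGANTCA for AP-1, TATAAA for the TATA box, GGGCGG for the GC box and GCGCATGC for the core of NRF-1 sites.
Ccr1, chr9:123968693-123968942, minus strand: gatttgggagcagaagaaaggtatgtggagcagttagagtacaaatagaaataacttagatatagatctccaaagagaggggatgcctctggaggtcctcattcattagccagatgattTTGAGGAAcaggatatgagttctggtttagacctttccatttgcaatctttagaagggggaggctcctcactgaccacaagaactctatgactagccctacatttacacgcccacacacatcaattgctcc
Cxcr4, chr1:128592300-128592549, minus strand: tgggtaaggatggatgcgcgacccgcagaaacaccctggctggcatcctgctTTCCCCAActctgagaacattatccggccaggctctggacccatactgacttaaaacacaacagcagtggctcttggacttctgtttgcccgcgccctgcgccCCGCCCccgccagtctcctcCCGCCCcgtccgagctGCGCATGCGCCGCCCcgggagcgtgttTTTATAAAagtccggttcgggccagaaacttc

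Both windows held a C/EBP match, and their other motifs differed. In Ccr1 the single run of capitals holds a C/EBP match that begins 131 bases before the start and, inside it, a PU.1 core that begins 129 bases before it. Among 32851 windows of the same length, 36.8% held the C/EBP letters and 23.3% the PU.1 core. In Cxcr4 a C/EBP match on the opposite strand begins at 198 bases, and GC boxes on that strand begin at 95, 75 and 50 bases. NRF-1 cores on both strands begin at 59 and 57 bases before the Cxcr4 start and overlap each other. The core at 57 bases shares a base with the last GC box. TATA boxes on both strands overlap at 32 and 30 bases. Of all windows, 32.7% held a GC box, 12.4% a TATA box and 2.26% the NRF-1 core. AP-1 letters, present in 6.75% of windows, were not matched in either. A match is a description of letters and not a binding site.

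Ccr1, Ccr2 and Cx3cr1 were at least 2-fold higher in the P2x7-KO-labelled library, and none of the 9 receptor genes was called lower. Cxcr4 was higher by less than 2-fold, and the intervals of Cxcr2 and Ccr7 included equality. In bulk RNA such as this, fewer cells of a type and less RNA per cell cannot be told apart. To be called, a gene needed a difference of at least 2-fold, up or down, and an exact counting interval that left out 1, among the 13363 genes whose counts in the pair of libraries summed to 20 or more. Over all of these genes 10.8% were called higher and 8.95% lower, against 3 and 0 of the 6 receptor genes counted. The other 3 of the 9, Cxcr3, Ccr9 and Ackr3, had too few counts for a call. The median log2 ratio was 1.07 over the 6 receptor genes and 0.0050 over all genes counted. The 9 receptors were chosen with earlier results of these data known, so this contrast with all genes is description only.

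**Figure D1:**
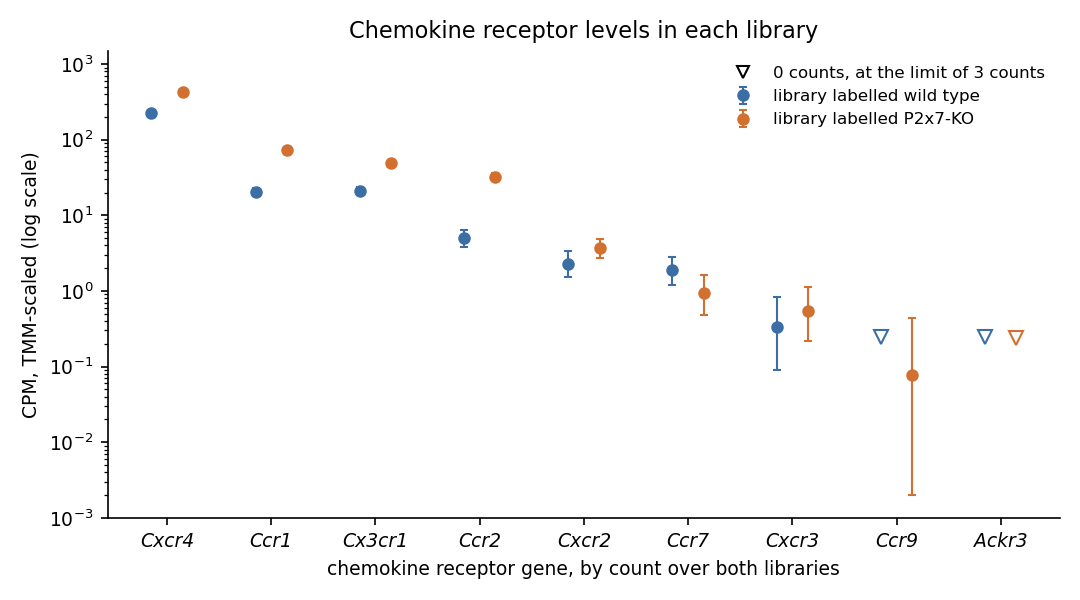
Level of each of the 9 chemokine receptor genes in CPM on a log axis, in the wild-type-labelled library (blue) and the P2x7-KO-labelled library (orange), with 95% Poisson intervals; open triangles mark 0 counts, drawn at the limit of 3 counts. Cxcr4 stands highest in both libraries, at 226 and 422 CPM, and Cxcr3, Ccr9 and Ackr3 lie near or below 1 CPM.

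Ccr2, the receptor for CCL2 and CCL7 on inflammatory monocytes, showed the largest ratio. It had 61 counts in the wild-type-labelled library, 5.01 CPM (95% interval 3.84 to 6.44), and 415 in the P2x7-KO-labelled library, 32.6 CPM (29.5 to 35.9). The intervals of these levels were well apart, and the ratio was 6.50 (4.96 to 8.65). Ccr2 lies at chr9:124101950-124113557, plus strand (build mm10, annotation GENCODE M21). Of its 50-base stretches, 2.27% also occur in transcripts of other genes.

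Ccr1 binds CCL3, CCL5, CCL6 and CCL9 and is found on monocytes and neutrophils. Its 250 counts in the wild-type-labelled library gave 20.6 CPM (18.1 to 23.3), and its 921 counts in the other gave 72.3 CPM (67.7 to 77.2). The level in the P2x7-KO-labelled library was thus 3.52-fold higher (3.06 to 4.06). Ccr1 lies at chr9:123962124-123968692, minus strand, and shares none of its 50-base stretches with annotated transcripts of another gene.

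Cx3cr1 encodes the fractalkine receptor, carried by patrolling monocytes and tissue macrophages. It had 256 counts in the wild-type-labelled library, 21.0 CPM (18.5 to 23.8), and 629 in the P2x7-KO-labelled library, 49.4 CPM (45.6 to 53.4), a ratio of 2.35 (2.03 to 2.72). The intervals of its levels did not overlap. The gene spans chr9:119901616-120069879, minus strand. There it shares 78 exon bases with Gm33858, an antisense gene that had 16 and 90 counts and a ratio of 5.37 (3.14 to 9.80). Whether counting used strand is not given, so a small part of these reads cannot be assigned.

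Cxcr4, the receptor for CXCL12, had the most counts of the 9 genes. It had 2747 counts in the wild-type-labelled library, 226 CPM (217 to 234), and 5374 in the P2x7-KO-labelled library, 422 CPM (411 to 433). With these many counts the interval was narrow, and the ratio of 1.87 (1.78 to 1.96) stayed under 2-fold throughout it. With total count scaling the interval of its log2 ratio, 0.90 to 1.04 around 0.97, reached past 2-fold. Of 493 genes with at least as many counts over both libraries, 20, Cxcr4 included, had a ratio at least as large, which is 4.06%. Cxcr4 lies at chr1:128588199-128592293, minus strand.

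Cxcr2 and Ccr7 were near the limit at which these libraries can show a difference. Cxcr2, the neutrophil receptor for CXCL1 and CXCL2, had 28 and 47 counts in the wild-type-labelled and P2x7-KO-labelled libraries, 2.30 and 3.69 CPM, a ratio of 1.60 (0.98 to 2.66). The lower bound of its log2 ratio, -0.024 here, was 0.045 with total count scaling and 0.013 with DESeq2 size factors, so that whether its interval includes equality depends on the scaling. Of its 50-base stretches, 6.77% also occur in transcripts of other genes, the largest such share of the 6. Ccr7, which guides dendritic cells and lymphocytes to lymph nodes, had 23 and 12 counts, 1.89 and 0.942 CPM. It was the one member of the 6 that lay lower in the P2x7-KO-labelled library, at a ratio of 0.498 (0.226 to 1.04), a difference not resolved at this depth. Both genes stand far below Cxcr4, Ccr1 and Cx3cr1 in each library.

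Cxcr3, Ccr9 and Ackr3 were at the edge of detection or below it. Cxcr3, which binds CXCL9 and CXCL10 and is typical of activated T and NK cells, had 4 and 7 counts in the wild-type-labelled and P2x7-KO-labelled libraries. The receptor gene for CCL25, Ccr9, had 0 and 1, both within the limit of 3 counts. Ackr3 had 0 counts in both. No fold is given for Ccr9 and Ackr3, and the interval of the Cxcr3 ratio ran from 0.425 to 7.79.

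**Figure D2:**
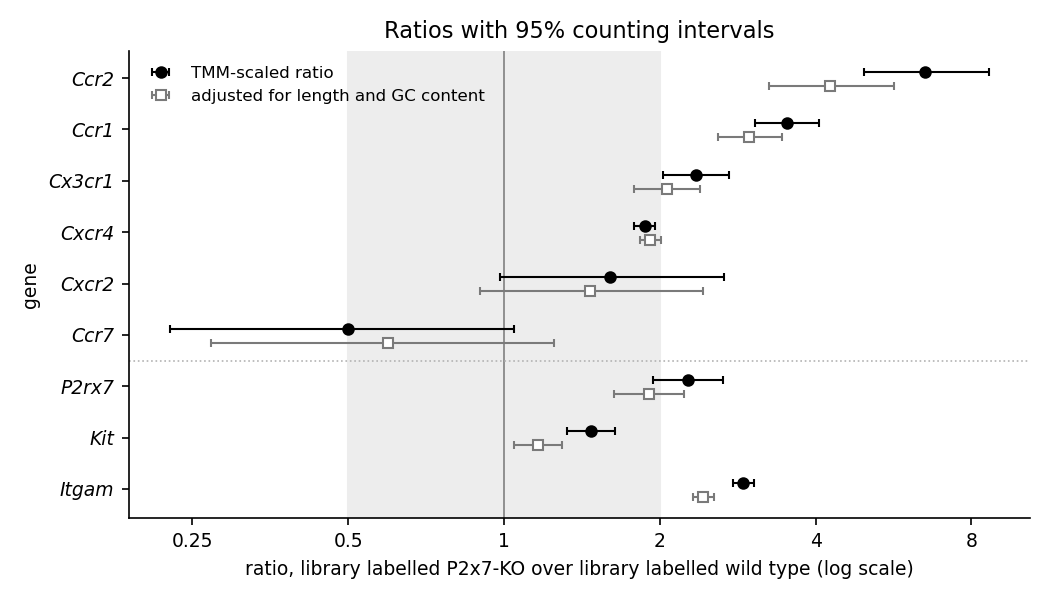
Ratio of the level in the P2x7-KO-labelled library to that in the wild-type-labelled library on a log axis, with exact 95% counting intervals, for the 6 receptor genes with at least 20 counts and, under the dotted line, for P2rx7, Kit and Itgam; squares give the ratio after the correction for transcript length and GC content, and the grey band spans 0.5 to 2. Ccr2, Ccr1 and Cx3cr1 lie right of the band under both, and Cxcr4 lies at its right edge.

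A curve over all genes related the ratio to transcript length and GC content, and taking it out changed the receptor ratios little in order. The log2 ratio of Ccr2 went from 2.70 to 2.09 (1.70 to 2.503), that of Ccr1 from 1.82 to 1.58 (1.37 to 1.78) and that of Cx3cr1 from 1.23 to 1.05 (0.833 to 1.26). All of them stayed past 2-fold, though the interval of Cx3cr1 then reached below it. Cxcr4, whose transcript is short, went from 0.90 to 0.94 (0.872 to 1.005).

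Levels of different receptor genes were compared per kilobase of the longest annotated transcript. In the wild-type-labelled library Cxcr4 stood at 125 CPM per kilobase, Ccr1 at 7.25 and Cx3cr1 at 4.68. Below them Ccr7, at 0.956 (0.606 to 1.43), Ccr2, at 0.875 (0.670 to 1.12), and Cxcr2, at 0.756 (0.502 to 1.09), had overlapping intervals and cannot be put in order. In the P2x7-KO-labelled library the order was Cxcr4 at 234, Ccr1 at 25.5, Cx3cr1 at 11.0, Ccr2 at 5.69, Cxcr2 at 1.21 and Ccr7 at 0.476 CPM per kilobase, with no overlap between neighbouring intervals. With the shortest annotated transcript in place of the longest, Ccr2 stood at 2.21 and 14.4 and Cx3cr1 at 6.67 and 15.7 CPM per kilobase. Ccr2 then stood above Ccr7 and Cxcr2 (1.04) in the wild-type-labelled library, so its place there depends on the isoform, and in the P2x7-KO-labelled library the order was the same but the intervals of Ccr2 and Cx3cr1 overlapped. Among all detected genes with a known length, on the scale of the longest transcript, Cxcr4 lay at percentile 96.4 in the wild-type-labelled library and 98.8 in the other. Ccr1 moved from percentile 56.2 to 81.7, Cx3cr1 from 48.6 to 64.1 and Ccr2 from 27.9 to 51.5.

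The make-up of the receptor counts needs no scaling between libraries. The 9 genes took 0.0270% of all counts in the wild-type-labelled library (3369 counts, Clopper-Pearson interval 0.0261 to 0.0280) and 0.0596% in the P2x7-KO-labelled library (7406 counts, 0.0582 to 0.0609). Cxcr4 made up 81.5% of them (80.2 to 82.8) in the former and 72.6% (71.5 to 73.6) in the latter. The Ccr1 share was 7.42% (6.56 to 8.36) and 12.4% (11.7 to 13.2), and the Ccr2 share 1.81% (1.39 to 2.32) and 5.60% (5.09 to 6.15). The Cx3cr1 shares, 7.60% (6.73 to 8.55) and 8.49% (7.87 to 9.15), had overlapping intervals. Ccr7 took 0.683% (0.433 to 1.02) of the receptor counts in the former and 0.162% (0.0838 to 0.283) in the latter.

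**Figure D3:**
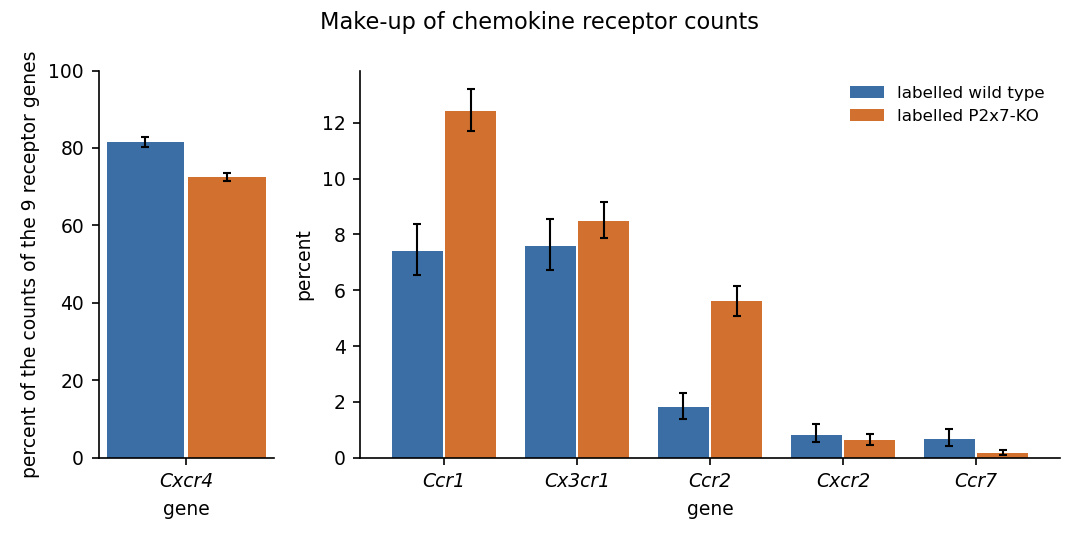
Percent of the summed counts of the 9 receptor genes that fell on each of 6 of them, in the wild-type-labelled library (blue) and the P2x7-KO-labelled library (orange), with 95% Clopper-Pearson intervals; Cxcr4 has an axis of its own. The Cxcr4 share is 81.5% and 72.6%, and those of Ccr1 and Ccr2 are larger in the P2x7-KO-labelled library.

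The receptor genes did not share 1 ratio. All 15 pairs of the 6 counted genes were compared by the ratio of their ratios, with exact conditional intervals not adjusted for the number of pairs, and 13 intervals excluded 1. The share among pairs of other genes was not computed, so whether 13 of 15 is unusual is not known. The Ccr2 ratio was 1.85 times that of Ccr1 (1.36 to 2.54) and 3.48 times that of Cxcr4 (2.64 to 4.65). That of Ccr1 was 1.499 times the Cx3cr1 ratio (1.22 to 1.84), which in turn was 1.26 times that of Cxcr4 (1.08 to 1.47). Ccr7 stood 3.75 times lower against Cxcr4 in the P2x7-KO-labelled library than in the other (1.79 to 8.28), although its own interval included equality. Cxcr2 could not be told apart from Cxcr4, at 0.858 (0.525 to 1.43), or from Cx3cr1. These intervals compare the 2 libraries and not the genotypes, and they carry no adjustment for length and GC content. After that adjustment the log2 ratios of Cx3cr1, 1.05 (0.833 to 1.26), and Cxcr4, 0.94 (0.872 to 1.005), had overlapping intervals. Those of Ccr2, 2.09 (1.70 to 2.503), and Ccr1, 1.58 (1.37 to 1.78), overlapped as well. Overlap of separate intervals does not show that the ratios of a pair are equal. The pair intervals were not computed again with the adjustment, so whether they would still exclude 1 is not given.

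Ccr1 and Ccr2 lie in a cluster of receptor genes on chromosome 9 that also holds Ccr1l1 and Ccr3. Of the genes in this cluster, Ccr1l1 had 2 and 1 counts in the wild-type-labelled and P2x7-KO-labelled libraries, and Ccr3 had 1 and 1. Within 500 kb of the Ccr2 start 16 genes were examined, of which 6 had at least 20 counts. Of these, Ccr1 and Ccr2 were called higher and the 4 others were neither higher nor lower. The nearest of the 4, Fyco1, which encodes an adaptor of vesicle transport, stood at 51.8 and 93.3 CPM (ratio 1.80, 1.63 to 1.99). Lztfl1 had a ratio of 1.39 (1.14 to 1.71), Gm10052 1.02 (0.955 to 1.10) and Ppp2r3d 0.660 (0.396 to 1.08). Cxcr6, within the span of Fyco1, and Xcr1, next to it, had 0 counts in both libraries. Cx3cr1 lies on the same chromosome but outside this window, next to Ccr8, which had 0 counts.

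**Figure D4:**
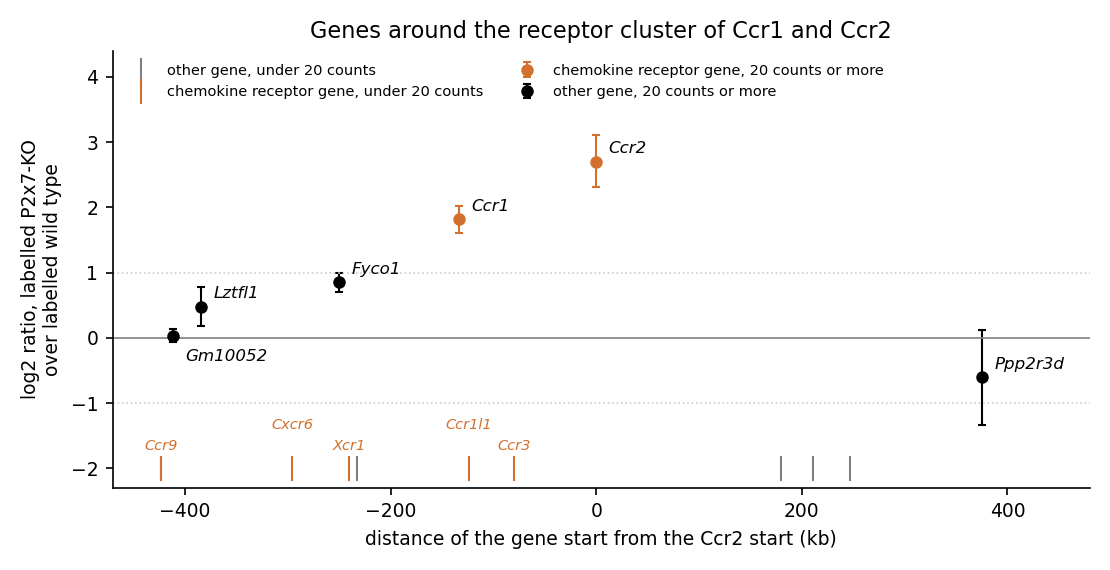
Log2 ratio (P2x7-KO-labelled over wild-type-labelled library) of genes within 500 kb of the Ccr2 start, by the distance of each gene's start in kb, with 95% counting intervals; ticks at the bottom mark genes under 20 counts, and dotted lines mark 2-fold. Of the 6 genes with at least 20 counts, Ccr2 and Ccr1 lie above 2-fold and the 4 others between the lines.

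Of 14 other chemokine receptors, conventional and atypical, 9 had 0 counts in both libraries and 1 reached 20 counts. That one, Ccrl2, which binds the chemoattractant chemerin, had 28 and 30 counts, a ratio of 1.02 (0.591 to 1.78). In the mouse it lies apart from the Ccr1 and Ccr2 cluster, at chr9:111054486-111057519. Besides the genes of the cluster, Ccr6 had 0 and 4 counts and Ackr4 0 and 1. Together the 14 had 31 counts in the wild-type-labelled library and 37 in the other, against 3369 and 7406 for the 9 genes described here. Which receptor genes were listed was decided with earlier results of these data known.

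The ligands of these receptors went both ways. Of 22 ligand genes, 9 had at least 20 counts, of which 3 were called higher and 2 lower in the P2x7-KO-labelled library, against 10.8% and 8.95% of all genes. Their median log2 ratio of -0.47 became 0.0056 after adjustment for length and GC content. Among the ligands of CCR1, Ccl6 had 334 counts in the wild-type-labelled library and 1200 in the other (ratio 3.43, 3.04 to 3.89). Ccl5 had 7 and 19 counts (2.59, 1.04 to 7.30), and its call, like that of Cxcl12, was lost where the nearer bound had to be 2 or more. Ccl3 stood on the other side, at 252 against 86.9 CPM (2.90-fold lower, 2.71 to 3.11). Ccl9 was also lower, by less than 2-fold, at 252 against 169 CPM. The CCR2 ligands were scarce in both libraries: Ccl2 had 16 and 12 counts, Ccl7 0 and 1, and Ccl12 1 and 2. The related gene Ccl8 had 0 counts in both.

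For the other receptors, ligand transcripts were mostly few. Cxcl12, the CXCR4 ligand that stromal cells make, had 6 and 20 counts in the wild-type-labelled and P2x7-KO-labelled libraries (3.18, 1.23 to 9.69). Its interval included equality once length and GC content were adjusted for, and stromal and endothelial markers (Cdh5, Kdr, Tek, Col1a1, Col3a1 and Lepr) summed to 8 counts in each library, with Kdr, Tek and Col3a1 at 0 in the wild-type-labelled library and Tek at 0 in the other. Mif, a cytokine that also binds CXCR2 and CXCR4, stood at 323 and 162 CPM, so the log2 ratio was -0.99, or 0.0054 after that adjustment. It has many processed pseudogenes, and the treatment of reads that match several places is not given, so its level is uncertain. The CXCR2 ligand gene Cxcl2 was 3.14-fold lower (2.01 to 5.05), at 81 against 27 counts, while Cxcl1 had 3 and 0 counts, and Cxcl3, Cxcl5 and Ppbp had none. The fractalkine gene Cx3cl1 and the CCR7 ligand genes Ccl19 and Ccl21a had 0 counts in both libraries. Ccl25, the CCR9 ligand gene, had 16 and 31 counts (ratio 1.85, 0.982 to 3.62). For CXCR3, Cxcl10 had 6 and 7 counts, Cxcl9 2 and 0, and Cxcl11 none.

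Receptors for other chemoattractants lay mostly above equality. Of 13 listed, 11 had at least 20 counts. Of these, 8 were called higher and 0 lower, against 10.8% and 8.95% of all genes, and their median log2 ratio was 1.40. The platelet-activating factor receptor gene Ptafr had 69 and 316 counts (4.37, 3.36 to 5.76) and the complement C5a receptor gene C5ar1 had 64 and 285 (4.25, 3.23 to 5.67). Fpr2, a formyl peptide receptor gene, had 61 and 227 counts (3.55, 2.67 to 4.80), and C5ar2 had 17 and 77 (4.33, 2.54 to 7.81). The leukotriene B4 receptor gene Ltb4r1, not called, had a ratio of 1.35 (1.24 to 1.47).

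Most genes of the shared signalling machinery lay between the 2-fold limits. Among 23 counted genes of G proteins and effectors 2 passed the call upward and 1 downward, 20 did not, shares no larger than the 10.8% and 8.95% of all genes, and the median was 0.30 on the log2 scale. Gnai2, the main Gi alpha gene of leukocytes, stood at 1062 and 1182 CPM (1.11, 1.09 to 1.14), while Gnai1 had 0 counts. Gng2, a G protein gamma subunit gene, had 424 and 1119 counts (2.52, 2.25 to 2.83). Pik3r5, which encodes the adaptor that ties phosphoinositide 3-kinase gamma to beta-gamma subunits, had 247 and 617 (2.39, 2.06 to 2.78). Rasgrp2, an activator of Rap1 in integrin signalling, was 2.12-fold lower (1.68 to 2.69), at 221 and 109 counts.

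Among genes that end the receptor signal, calls were made in both directions. Of 7 counted RGS genes, 1 was called lower and 0 higher, where 8.95% and 10.8% of all genes were, with a median log2 ratio of -0.067 that turned to 0.0017 with total count scaling and, once length and GC content were adjusted for, to 0.12. Rgs1, which dampens chemokine responses in leukocytes, had 138 counts in the wild-type-labelled library and 13 in the other, 11.1-fold lower (6.29 to 21.4). Of 6 counted receptor kinase and arrestin genes, 2 were called higher and 0 lower, beside 10.8% and 8.95% of all genes, and their median log2 ratio was 0.45. The receptor kinase gene Grk5 had 50 and 229 counts (4.38, 3.21 to 6.07). Arrb1, which encodes beta-arrestin 1, had 755 and 1848 counts (2.34, 2.15 to 2.55), and adjusted for length and GC content its log2 ratio was 0.90, under 2-fold. Adrbk1, which encodes another receptor kinase, stood at 844 and 714 CPM.

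**Figure D5:**
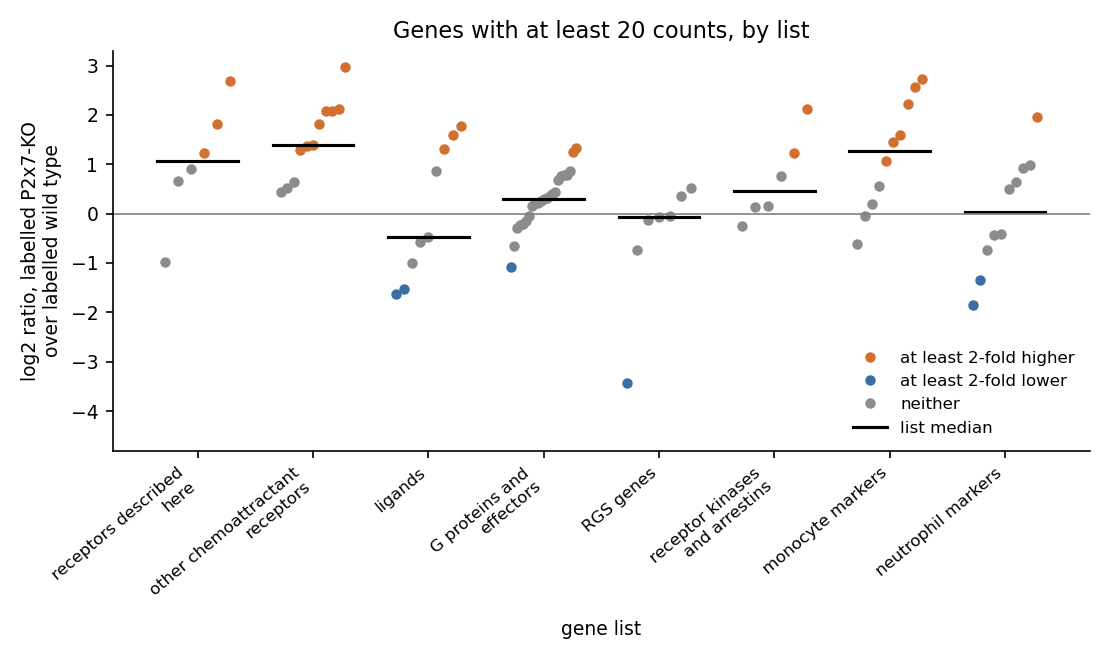
Log2 ratio (P2x7-KO-labelled over wild-type-labelled library, 0.5 added to each count) of every gene with at least 20 counts, by list; orange points were called at least 2-fold higher, blue at least 2-fold lower, grey neither, and bars mark list medians. The chemokine receptors, other chemoattractant receptors and monocyte markers have medians of 1.07, 1.40 and 1.26, and the neutrophil markers 0.042. Adjusted for length and GC content, which is not drawn, these medians were 0.99, 1.49, 1.33 and 0.48.

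Markers of the cell types that carry these receptors moved unevenly beside them. Of 10 monocyte markers (Csf1r, Ly6c2, F13a1, Fn1, Mpeg1, Lyz2, Ctss, Ms4a6c, Irf8 and Klf4) 6 were called higher and 0 lower, none was at 0, and their sum was 2834 CPM in the wild-type-labelled library and 5755 in the other. Csf1r, the monocyte growth factor receptor gene, had a ratio of 2.75 (2.58 to 2.93), and Ly6c2, typical of the monocytes that carry CCR2, one of 0.965 (0.941 to 0.990). The ratios of the 10 ran from 0.654 (0.601 to 0.712) for Klf4 to 6.65 (6.28 to 7.05) for F13a1, with 8 above equality. Of 10 neutrophil markers 1 was called higher and 2 lower, none was at 0, and the sums were 3729.8 and 3430.1 CPM. The median log2 ratio of the neutrophil markers was 0.042, or 0.48 adjusted for length and GC content. That of the monocyte markers was 1.26, or 1.33 adjusted. Over all genes, 10.8% were called higher and 8.95% lower. The part that cell make-up has in the receptor ratios was not tested.

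Lymphoid and dendritic markers were low or absent in both libraries, except for a few. The 8 T cell markers summed to 2.30 and 4.79 CPM, with Cd3e, Cd8a and Cd2 at 0 in the wild-type-labelled library and Cd2 at 0 in the other. Of 6 NK cell markers, Ncr1 and Prf1 were at 0 in both libraries, Gzma was also at 0 in the wild-type-labelled library and Eomes in the other. Their sums were 25.4 and 9.58 CPM, nearly all Nkg7. Of 5 B cell markers, Ms4a1, Pax5 and Ebf1 were at 0 in the wild-type-labelled library and none in the other, and the sums of 56.4 and 54.4 CPM came almost wholly from Cd79b. Conventional dendritic cell markers summed to 6.99 and 11.4 CPM, with H2-Aa at 0 in both, and plasmacytoid ones to 452 and 290.2 CPM, with Klk1 at 0 in both and Ly6d in the wild-type-labelled library, most of it Tcf4. The plasmacytoid markers were mixed: Siglech, with 3 and 25 counts, was called higher (7.96, 2.43 to 41.2), and Bst2 was called lower. Mast cell and basophil markers summed to 379 and 40.1 CPM, with Fcer1a at 0 in both libraries and Prss34 in the P2x7-KO-labelled library. Most of the difference was Cpa3, at 334 and 22.0 CPM. Hdc was also called lower, while Mcpt8 and Ms4a2 were not called. Eosinophil markers summed to 75.5 and 64.6 CPM, with Epx at 0 in the wild-type-labelled library. The erythroid sums, over 5 markers, were 76.0 and 92.0 CPM, mostly Tfrc, with Hbb-bs at 1 and 58 counts and Epor at 0 in the wild-type-labelled library.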

How the data were processed

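The deposited table gives raw counts per gene in 2 libraries, 1 per genotype label, and the submitters' processing notes name HISAT2 2.0.4 and mm10. The counting program, annotation and strand setting are stated neither in the labels nor in the table. Both value columns were used (0 left out). Counts were scaled with TMM in edgeR 4.0.16 (R 4.3.3). Ratios have exact 95% Clopper-Pearson intervals and CPM exact Poisson intervals (scipy 1.17.1). Pair intervals are exact conditional odds-ratio intervals. Lists used log2 ratios with 0.5 added to each count. Lengths and GC content came from the longest GENCODE M21 transcript, found for 94.6% of the genes counted, and the adjustment was an additive smooth curve on both (mgcv 1.9.3). Promoters came from RefSeq, GRCm38.p6.

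The 9 receptors and all lists were chosen with earlier results of these data known. Named genes were all 9 receptors, P2rx7, Kit and Itgam, other receptors with a count, and up to 4 called genes per direction and list by nearer interval bound. Others named in a list's paragraph, among them the other ligands, Gnai2, Gnai1, Adrbk1, Ltb4r1 and the neighbours of Ccr2, were chosen after their values were seen. The rule was tested for this comparison on simulated Poisson counts, scaled by total count, which hold counting error only. Of 50 genes changed by 2.5-fold upward 98% were called, of 50 downward 96%, and of 13176 unchanged genes 0.349%. These rates leave out variation between mice and between library preparations. Alternatives were other scalings, count filters, call rules and the length and GC adjustment. Some genes of the lists are not reported here.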

Additional observations from a re-analysis of the deposited data

How the results depend on the processing

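Ccr1, Ccr2 and Cx3cr1 were called higher and no receptor lower under every scaling, filter and call rule run; the rule at 1.5-fold added Cxcr4. Total count scaling put the Cxcr4 log2 ratio at 0.97. Adjustment for length and GC content put Ccr1 at 1.58 and Ccr2 at 2.09, called 719 genes lower over the whole table against 1196, and 1 receptor kinase or arrestin gene higher against 2. With the nearer bound required at 2 or more, 724 genes were called higher and 529 lower, with 1 ligand gene higher and 0 effector genes lower. At 1.5-fold 2825 genes were higher and 2521 lower, with 7 effector genes higher and 2 lower, and 2 RGS genes lower. The causes of these shifts were not tested, apart from what each rule itself admits. Under the alternatives 194 values stayed within the limits set and 20 moved, and the median log2 ratios of the ligand and RGS lists, not called values, changed sign. No paired analysis was possible because each group has 1 library, and for the same reason no replicate could be left out. At this depth, differences in Ccr7, Cxcr3, Ccr9 and Ackr3 could not be resolved. For Cxcr2 the interval excluded equality with total count scaling and DESeq2 size factors only. It included equality with TMM, with TMM without ribosomal protein and mitochondrial genes, with upper quartile scaling and with the length and GC adjustment.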
